A study of Rattus norvegicus with 9 samples.

Results

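Genes that mark T cells, B cells, natural killer (NK) cells and mast cells were followed in the prostates of rats with androgen-induced benign prostatic hyperplasia (BPH) and ghrelin treatment. The 42 genes were chosen by name and matched through the RefSeq accession of each probe, and 38 of them had a probe, of 15163 gene symbols on the array. RNA from whole prostates of male Sprague Dawley rats, 6 weeks old when bought, had been hybridised to one-colour Agilent rat arrays, 3 rats per group and 1 array per rat. Sham rats had a sham castration and received corn oil and an oral water vehicle. BPH rats were castrated, then given dihydrotestosterone at 3 mg/kg under the skin each day for 4 weeks, with the same oral vehicle. BPH+ghrelin rats had the same castration and androgen, and in addition oral rat ghrelin at 20 nmol/kg each day for 2 weeks. The study kept 8 rats per group, and which 3 of them were arrayed is not given in the sources used here. Both BPH groups therefore lacked testes and carried an androgen supplied from outside, while the sham rats kept their own.

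T cells recognise peptides through the T cell receptor, whose signal runs through the CD3 chains to the kinases LCK and ZAP70. Cytotoxic T cells and NK cells kill by releasing granules with perforin and granzymes. B cells make antibodies, and mast cells sit in connective tissue, bind immunoglobulin E and store proteases such as tryptase and carboxypeptidase A3. In the prostate all of them are scarce beside epithelium and stroma, and in human BPH lymphocytes are known to gather in the stroma. These arrays measured whole tissue, so fewer cells of a type and less RNA per cell cannot be told apart.

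The array values are log2 signals after quantile normalization, without a unit, and are compared only within a probe. The raw median signal was 40.9 on sham replicate 2 and between 73.3 and 133 on the others, and 61.4% of the probes were well above background on that array against at least 69.5% on the others. By the scan times in the file headers the arrays fell into 3 scans: the BPH arrays with BPH+ghrelin replicate 1, BPH+ghrelin replicates 2 and 3 with sham replicates 1 and 2, and sham replicate 3 alone. BPH and sham arrays shared no scan, so their difference and that between scans can be separated only through the BPH+ghrelin arrays. Differences were tested with limma over all genes, a call means an adjusted p under 0.05, and 3 arrays per group limit the precision of every value (an exact permutation test of 3 against 3 cannot go below 0.1). The 3 comparisons share arrays in pairs, so their values are set side by side and not counted as separate evidence.

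The data bore out the names unevenly. Of the 38 genes with a probe, 22 were well above background on all 9 arrays by at least 1 probe, and 30 were bright enough to be tested in at least 1 comparison. The T cell receptor chains Cd3d, Cd3g and Cd247 were above background on 9 of 9 arrays, whereas Cd3e was above it on 1, Cd8a on 2 and Cd4 on 3. The B cell side was close to silent. Cd79b, a chain of the B cell receptor complex, and Cd22, its inhibitory coreceptor, were above background on 0 of 9 arrays, Blk was above it on 1, and Cd79a, Ms4a1 (CD20) and Jchain had no matched probe. Pax5, the transcription factor of B cell identity, was the exception at 7.45 to 7.97 on all arrays, so that among the 42 genes the B cell label rests on 1 probe here. Cd5 and Cd28 were above background on 0 arrays, Ncr1 on 1, and Tcf7 had no matched probe.

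In BPH against sham, 29 of the listed genes were tested and 5 were called, which is 17.2% of them beside 4.33% of all 19552 genes and unmatched probes tested. The T cell genes Cd3d and Cd7, the granzyme Gzma and the surface antigen Cd52 were lower in BPH (lower calls made up 2.18% of all genes), and Ctla4 had a positive difference (higher calls made up 2.15% of all genes). Ctla4 passed the filter on dim probes only through its BPH arrays, which favoured its direction, so its call is a description, and the other 4 calls were all lower. The median difference of the 29 genes was -0.20 on the log2 scale, against 0.04 for all genes tested, and 21 of the 29 lay below 0, where 46.3% of all genes did. With 1 array left out the median ran from -0.26 to -0.097, the latter without sham replicate 2. At an unadjusted p under 0.05 the same count of 5 passed (17.2%), beside 26.5% of all genes. For 8 genes all BPH arrays lay below all sham arrays and for 2 they lay above (14.2% and 17.1% of all genes). Fitted on the 6 arrays of the comparison alone, 0 were called by limma (5 at an unadjusted p under 0.05, and 0.926% of all genes called), with adjusted p between 0.0753 (Gzma) and 0.128 (Ctla4) for the 5. The count of 5 rested on few arrays: leaving out sham replicate 3 or BPH replicate 2 gave 0, leaving out BPH replicate 3 gave 1 and leaving out BPH replicate 1 gave 3. With the scan as a block 0 of 29 genes were called by limma, 3 of them at an unadjusted p under 0.05, and the median was -0.08. No share over all genes is given for fits with a scan block, within a scan or with an array left out. Counts from those fits are therefore descriptions.

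In BPH+ghrelin against BPH, limma called 0 of 28 genes, beside 1.48% of all 19749 genes and unmatched probes tested, and the lowest adjusted p was 0.102 (Cd7). At an unadjusted p under 0.05, 8 of the 28 passed (28.6%, beside 21.1% of all genes): Cd52, Cd8b, Ctla4, Gzmk and Nkg7 had negative differences, and Cd7, Foxp3 and Tpsab1 positive ones. The median difference was -0.21 against 0.02 for all genes, with 20 of 28 genes below 0 beside 48.3% of all genes. It was -0.35 within the scan that held all 3 BPH arrays and BPH+ghrelin replicate 1, -0.065 without BPH+ghrelin replicate 1 and -0.11 without BPH replicate 1. For 6 genes all BPH+ghrelin arrays lay below all BPH arrays and for 4 above (19.3% and 19.8% of all genes). Fitted on the 6 arrays of the comparison alone, 5 genes were called (10.6% of all genes were), with adjusted p between 0.0209 and 0.0498: Cd7 and Tpsab1 with positive differences, and Gzmk, Nkg7 and Kit with negative ones. Kit reached the filter on dim probes only through BPH, where it was high (3 BPH arrays and 1 BPH+ghrelin array above background), so its call is a description. Cd52 alone was called without BPH replicate 3.

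Of 26 genes tested in BPH+ghrelin against sham, 4 were called, which is 15.4% beside 6.3% of all 19197 genes and unmatched probes tested. All 4 of them were lower in BPH+ghrelin (3.3% of all genes): Cd52, Gzma, Cd3d and the granule membrane gene Nkg7. The median difference was -0.32 against 0.04 for all genes, and -0.29 within the scan that held 2 arrays of each group, and 17 of 26 genes lay below 0 beside 45.6% of all genes. An unadjusted p under 0.05 was met by 8 of 26 (30.8%, beside 23.7% of all genes). For 9 genes all BPH+ghrelin arrays lay below all sham arrays and for 2 above (12.8% and 17.5% of all genes). The count was 1 without sham replicate 3 or without BPH+ghrelin replicate 2, 2 without BPH+ghrelin replicate 1, and 0 within that scan, where limma had 4 arrays and 5 of the 26 genes passed an unadjusted p under 0.05.

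**Figure D1:**
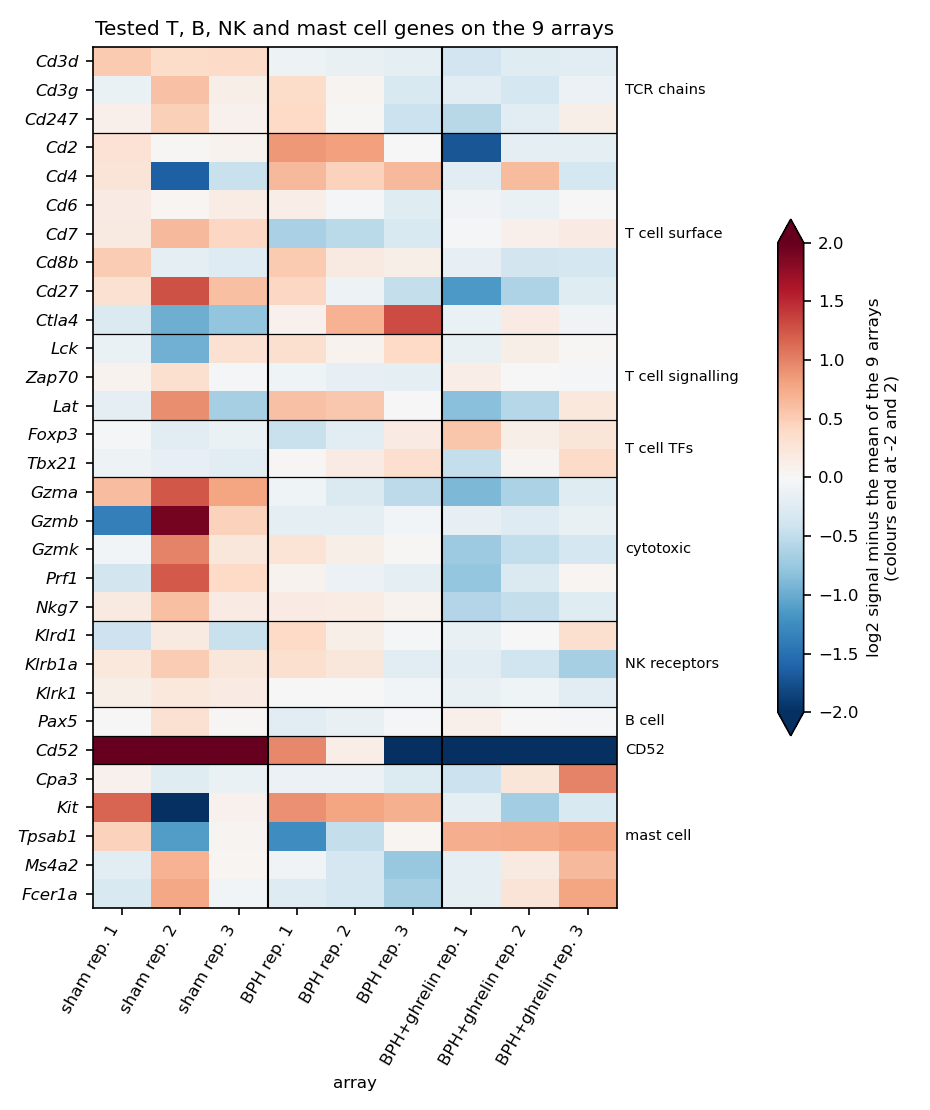
Log2 signal of the 30 tested genes (rows, grouped by role) on the 9 arrays (columns), as the difference from the mean of each gene over the arrays; colours end at -2 and 2. Cd52 runs from 14.62 on sham replicate 1 to 4.05 on BPH+ghrelin replicate 3, sham replicate 2 is the highest array for Gzma, Gzmb, Gzmk, Prf1 and Nkg7, and the mast cell genes Cpa3, Ms4a2 and Fcer1a are highest on BPH+ghrelin replicate 3 among the BPH+ghrelin arrays.

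**Figure D2:**
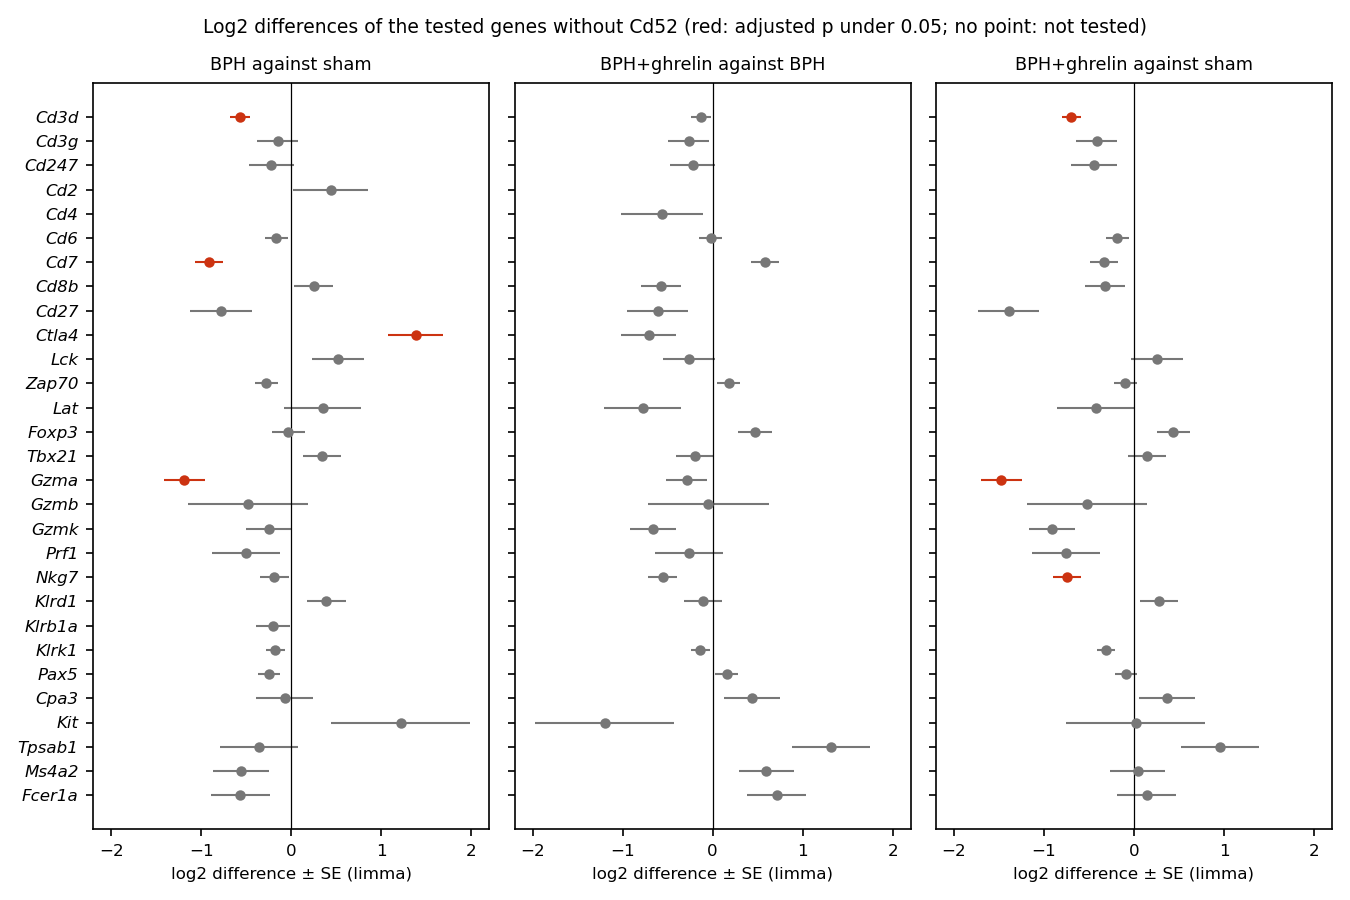
Log2 difference with its standard error (limma, 3 against 3 arrays) for the tested genes other than Cd52, in the 3 comparisons; red marks an adjusted p under 0.05, and a gene without a point was not tested there. Ctla4 at 1.38, which was tested only through its BPH arrays, is the red point above 0 in BPH against sham, BPH+ghrelin against BPH has no red point, and Cd3d and Gzma are red in both comparisons with sham.

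Among the T cell receptor chains, Cd3d, the delta chain of CD3, measured 8.18, 8.02 and 8.05 on sham replicates 1, 2 and 3, then 7.56, 7.52 and 7.47 in BPH and 7.28, 7.43 and 7.46 in BPH+ghrelin. The replicates lay close together, and no array of either BPH group reached the lowest sham array. The difference was -0.57 ± 0.11 (SE) in BPH against sham (adjusted p = 0.0339) and -0.69 ± 0.11 in BPH+ghrelin against sham (adjusted p = 0.0137), and it was -0.13 ± 0.11 in BPH+ghrelin against BPH (adjusted p = 0.544). For BPH against sham the adjusted p was 0.122 without sham replicate 3, and 0.0587, 0.163 and 0.0902 without BPH replicates 1, 2 and 3. For BPH+ghrelin against sham it was 0.0633 without sham replicate 3, and 0.0524 and 0.0737 without BPH+ghrelin replicates 1 and 2. Cd3g and Cd247, the gamma and zeta chains, had differences of -0.15 and -0.22 in BPH and of -0.41 and -0.44 in BPH+ghrelin against sham, with overlapping arrays, and passed no test. Cd3e, the epsilon chain, was not tested and ran from 0.54 to 3.47 near the background.

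Among the surface receptors, Cd7, an early T cell and NK cell antigen, measured 6.08, 6.54 and 6.31 in sham, 5.24, 5.37 and 5.59 in BPH and 5.88, 6.01 and 6.06 in BPH+ghrelin. All BPH arrays were below all arrays of the other groups, and the BPH+ghrelin arrays lay in between, just under the lowest sham array. Cd7 was lower in BPH than in sham by -0.91 ± 0.16 on the log2 scale (adjusted p = 0.0228). The adjusted p was 0.0961 without sham replicate 3, and 0.0533 and 0.124 without BPH replicates 1 and 2. Its difference was 0.58 ± 0.16 in BPH+ghrelin against BPH (adjusted p = 0.102) and -0.33 ± 0.16 in BPH+ghrelin against sham (adjusted p = 0.245).

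Ctla4, which restrains T cell activation and is carried by regulatory T cells, measured 3.14, 2.45 and 2.63 in sham, where it was well above background on 0 of 3 arrays. It measured 3.50, 4.12 and 4.73 in BPH and 3.29, 3.59 and 3.35 in BPH+ghrelin. The BPH arrays were all above the sham arrays, with BPH replicate 3 highest. The measured difference was 1.38 ± 0.31 (limma, adjusted p = 0.0473). With each sham array set to no less than its lowest signal well above background, BPH was 1.78-fold sham. That value depends on the background treatment and is no strict lower limit. The gene entered this comparison only because all 3 BPH arrays were above background, so its direction was favoured by the filter and the test is given as a description. The adjusted p was 0.0829 and 0.152 without sham replicates 2 and 3, and 0.179 and 0.104 without BPH replicates 2 and 3, and over all alternatives it ran from 0.0262 to 0.741. Under 75th percentile scaling it was 0.0741, and normexp background correction gave a difference of 0.20. The difference was -0.71 ± 0.31 in BPH+ghrelin against BPH (adjusted p = 0.236), and the gene was too dim to be tested in BPH+ghrelin against sham. A second Ctla4 probe was well above background on 0 sham, 0 BPH and 1 BPH+ghrelin arrays and was not tested. Its means were 0.60 in sham, 1.12 in BPH and 1.31 in BPH+ghrelin. So close to the background it cannot check the call, which rests on 1 probe.

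Foxp3, the transcription factor of regulatory T cells, measured 4.30, 4.12 and 4.21 in sham, 3.91, 4.12 and 4.51 in BPH and 4.90, 4.47 and 4.58 in BPH+ghrelin. The sham and BPH arrays overlapped, and the BPH+ghrelin arrays lay above all sham arrays. Its difference was -0.03 ± 0.18 in BPH against sham (adjusted p = 0.926) and 0.44 ± 0.18 in BPH+ghrelin against sham (adjusted p = 0.196).

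Cd27, a costimulatory receptor of the tumour necrosis factor receptor family, measured 5.28, 6.25 and 5.59 in sham, 5.39, 4.88 and 4.50 in BPH and 3.84, 4.37 and 4.74 in BPH+ghrelin. Sham replicate 2 was the highest array, and no BPH+ghrelin array reached the lowest sham array. The difference in BPH+ghrelin against sham was -1.39 ± 0.34 and just missed the threshold (adjusted p = 0.0506). The call depended on the setting. It was made without sham replicate 1 (adjusted p = 0.0407) and in 4 of 11 other settings, with 0.0327 under 75th percentile scaling as the lowest, while the adjusted p reached 0.154 with another array left out and 0.559 within 1 scan.

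Cd4, the coreceptor of helper T cells, was tested in BPH+ghrelin against BPH only, with a difference of -0.56 ± 0.46 (adjusted p = 0.504), and ran from 0.60 on sham replicate 2 to 2.89. Cd8b, the beta chain of the cytotoxic T cell coreceptor, was above background on all 9 arrays, with differences of 0.25 in BPH against sham and -0.57 in BPH+ghrelin against BPH (adjusted p = 0.194), while its partner chain Cd8a was dim throughout at 0.56 to 2.82. Cd2, an adhesion receptor of T cells, was tested in BPH against sham only, with a difference of 0.44 (adjusted p = 0.52). By the brightest probe of each, Cd6 and the signalling genes Lck, Zap70 and Lat had differences between -0.77 and 0.52 in the 3 comparisons, and limma called 0 of these 4 (0 at an unadjusted p under 0.05).

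Probes of 2 further genes carried unusual values and were singled out after their values were seen. Tbx21, the transcription factor T-bet of type 1 helper T cells, measured 11.69 to 12.54, with no call in any comparison. Cd6, a T cell scavenger receptor, had 3 probes matched to 1 accession. The third measured 6.27, 6.78 and 6.21 in sham, 3.47, 4.49 and 5.12 in BPH and 5.97, 6.71 and 7.31 in BPH+ghrelin. All its BPH arrays were below all other arrays, with differences of -2.06 ± 0.46 in BPH against sham (adjusted p = 0.0477 over all 21928 passing probes) and 2.31 ± 0.46 in BPH+ghrelin against BPH (adjusted p = 0.0569). The other 2 probes had -0.17 and -0.17 in BPH against sham, and -0.02 and 0.36 in BPH+ghrelin against BPH. The Cd6 probes thus disagreed, and the gene is uncertain.

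**Figure D3:**
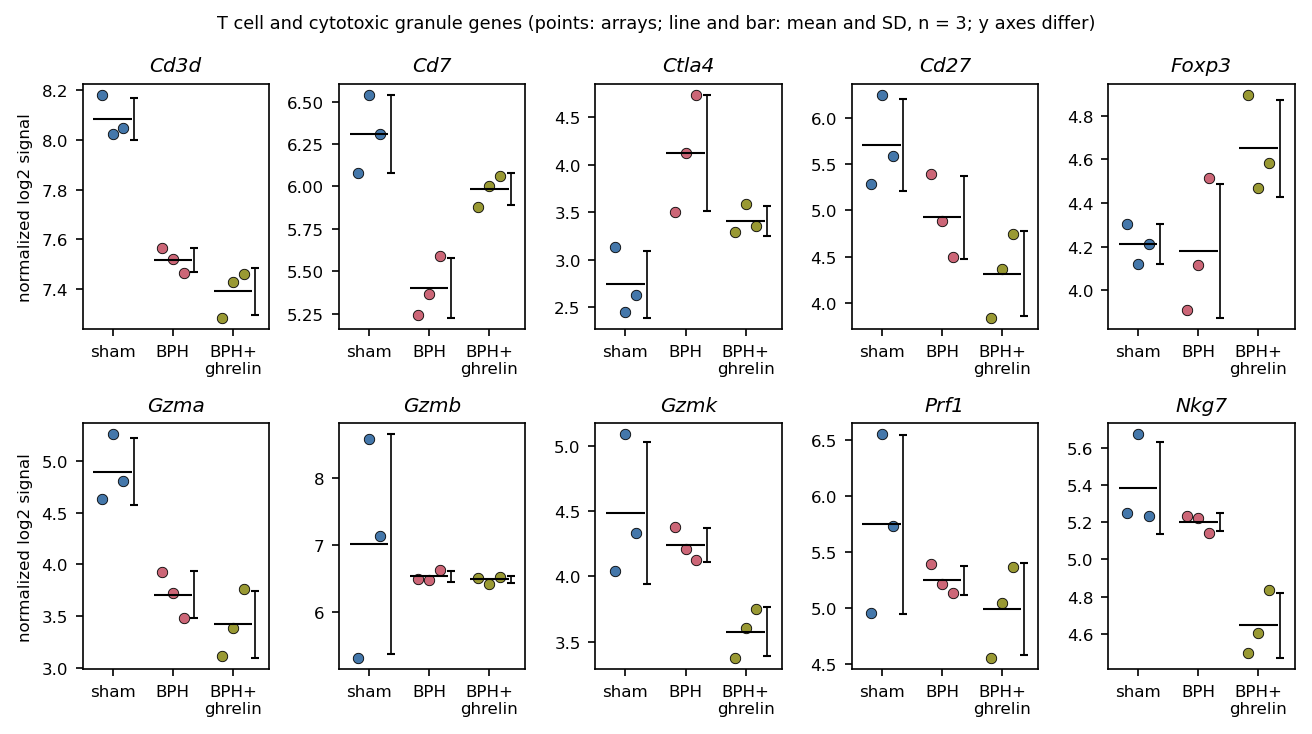
Normalized log2 signal of 5 T cell genes and 5 cytotoxic granule genes, 1 point per array, with the mean and SD of the 3 arrays of each group; the y axes differ between genes. The sham points of Cd3d and Gzma are all above the points of both BPH groups, the BPH points of Cd7 are below all others, and sham replicate 2 (the middle sham point) is the highest for each granule gene.

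By the brightest probe of each, the 5 cytotoxic granule genes had negative differences in each comparison, though several signs rested on 1 array or probe. Of all genes, 46.3% lay below 0 in BPH against sham, 48.3% in BPH+ghrelin against BPH and 45.6% in BPH+ghrelin against sham. Without sham replicate 2, Gzmb turned to 0.31 and Gzmk to 0.056 in BPH against sham, and Gzmb to 0.26 in BPH+ghrelin against sham. In BPH+ghrelin against BPH, Gzmb was 0.50 as the mean of its probes. The medians were -0.48 in BPH against sham, -0.29 in BPH+ghrelin against BPH and -0.76 in BPH+ghrelin against sham. The calls by limma were 1 of 5 (Gzma), 0 of 5 and 2 of 5 (Gzma and Nkg7), beside 4.33%, 1.48% and 6.3% of all genes. In BPH+ghrelin against BPH 2 of the 5, Gzmk and Nkg7, had an unadjusted p under 0.05, beside 21.1% of all genes. Their promoters are shown because the genes lay on the same side of 0, and because all 5 held the letters TGTGGT, the core bound by RUNX transcription factors, on one of the strands. The windows run from 250 bases before to 50 after the RefSeq gene start in assembly GRCr8 and are printed 5' to 3' on the strand of the gene, at chr2:46485647-46485946 (minus strand) for Gzma, chr15:34462420-34462719 (minus strand) for Gzmb, chr2:46581966-46582265 (minus strand) for Gzmk, chr20:29788790-29789089 (plus strand) for Prf1 and chr1:102981247-102981546 (plus strand) for Nkg7. Capitals mark TGTGGT or its reverse complement ACCACA, and in Gzmk also AGAACA, the half-site of the androgen receptor.
Gzma: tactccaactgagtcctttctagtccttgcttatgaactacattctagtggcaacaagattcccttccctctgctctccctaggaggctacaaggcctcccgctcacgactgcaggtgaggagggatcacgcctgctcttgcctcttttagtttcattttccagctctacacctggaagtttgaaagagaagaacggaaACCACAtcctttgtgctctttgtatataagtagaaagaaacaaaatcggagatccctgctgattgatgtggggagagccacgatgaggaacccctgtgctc
Gzmb: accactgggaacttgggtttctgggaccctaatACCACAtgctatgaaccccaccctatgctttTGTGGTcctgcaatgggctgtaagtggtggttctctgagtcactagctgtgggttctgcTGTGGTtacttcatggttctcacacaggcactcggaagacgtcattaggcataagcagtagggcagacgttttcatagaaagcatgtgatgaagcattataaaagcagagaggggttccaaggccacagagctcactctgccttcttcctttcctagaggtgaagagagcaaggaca
Gzmk: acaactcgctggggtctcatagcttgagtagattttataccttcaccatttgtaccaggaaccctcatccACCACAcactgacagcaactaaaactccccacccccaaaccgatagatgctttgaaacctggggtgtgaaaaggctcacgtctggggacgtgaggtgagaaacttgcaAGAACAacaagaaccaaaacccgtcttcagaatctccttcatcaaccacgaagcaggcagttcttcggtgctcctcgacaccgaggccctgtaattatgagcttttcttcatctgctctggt
Prf1: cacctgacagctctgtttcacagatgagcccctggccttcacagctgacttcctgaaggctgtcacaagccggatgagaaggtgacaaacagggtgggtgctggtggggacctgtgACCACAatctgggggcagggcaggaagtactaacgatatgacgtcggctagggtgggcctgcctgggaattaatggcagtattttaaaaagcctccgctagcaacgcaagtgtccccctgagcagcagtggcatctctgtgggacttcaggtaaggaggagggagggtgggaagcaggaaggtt
Nkg7: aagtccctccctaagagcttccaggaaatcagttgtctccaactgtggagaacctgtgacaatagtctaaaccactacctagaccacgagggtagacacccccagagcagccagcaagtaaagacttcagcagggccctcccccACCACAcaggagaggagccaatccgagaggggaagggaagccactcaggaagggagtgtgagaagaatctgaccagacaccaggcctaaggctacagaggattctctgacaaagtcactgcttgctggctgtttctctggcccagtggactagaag
Besides these letters, AGAACA was searched for the androgen receptor. For the GATA factors the core AGATAA was used. All 3 motifs were searched on both strands, and none contains another. A promoter window was given for 31 of the 42 genes. TGTGGT was in 5 of 5 granule genes and in 5 of the other 26 (Cd2, Cd28, Lck, Lat and Klrk1), against 17.3% of all 33469 rat promoters of this length. Counted from the start site, its first base was at -51 in Gzma and at -106 in Nkg7, and Gzmb held 3 matches. AGAACA was in 2 of the 31 (Cd247 and Gzmk), against 20.7% of all promoters. A match of letters is a description and not a binding site, and its part in the values was not tested.

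Gzma, a tryptase-like granzyme, measured 4.63, 5.26 and 4.80 in sham, 3.93, 3.72 and 3.48 in BPH and 3.12, 3.38 and 3.76 in BPH+ghrelin. The lowest sham array was above every array of both BPH groups, which overlapped each other. Gzma was 2.28-fold lower in BPH (-1.19 ± 0.23 on the log2 scale, adjusted p = 0.0319) and 2.78-fold lower in BPH+ghrelin than in sham (-1.48 ± 0.23, adjusted p = 0.0119). For BPH the adjusted p was 0.103 without sham replicate 3, and 0.138 and 0.0966 without BPH replicates 2 and 3. For BPH+ghrelin it was 0.0511 without sham replicate 3 and 0.0647 without BPH+ghrelin replicate 2. The difference between the BPH groups was -0.29 ± 0.23 (adjusted p = 0.493), and normexp gave -0.24 in BPH against sham. Over 11 other settings the difference in BPH+ghrelin against sham ran from -1.54 to -0.28.

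Nkg7, a membrane protein of the granules, measured 5.25, 5.67 and 5.23 in sham, 5.23, 5.22 and 5.14 in BPH and 4.49, 4.60 and 4.84 in BPH+ghrelin. Here the BPH arrays sat just under the sham arrays, and the 3 BPH+ghrelin arrays were below all others. Nkg7 was lower in BPH+ghrelin than in sham (-0.74 ± 0.16, adjusted p = 0.0339), and its difference from BPH was -0.55 ± 0.16 (adjusted p = 0.113) and -0.71 within the shared scan. The call against sham had adjusted p of 0.0888, 0.106, 0.137 and 0.053 without sham replicate 3 and BPH+ghrelin replicates 1, 2 and 3, and normexp gave a difference of -0.23.

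Gzmk, a further tryptase-like granzyme, measured 4.04, 5.09 and 4.33 in sham, 4.38, 4.21 and 4.13 in BPH and 3.38, 3.61 and 3.75 in BPH+ghrelin. The BPH+ghrelin arrays were below all others. The differences were -0.66 ± 0.26 from BPH (adjusted p = 0.194) and -0.91 ± 0.25 from sham (adjusted p = 0.0746), and neither passed the test. Without sham replicate 1 the latter was called (adjusted p = 0.0357), with up to 0.204 for another array left out.

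Gzmb, the granzyme that cleaves caspases, measured 5.32, 8.58 and 7.13 in sham but 6.50, 6.48 and 6.62 in BPH and 6.51, 6.42 and 6.53 in BPH+ghrelin. The sham arrays spread over more than the range of the other 6 and lay on both sides of them. The difference in BPH against sham was -0.48 ± 0.67 (adjusted p = 0.666) and turned to 0.31 without sham replicate 2, whereas without sham replicate 1 it was -1.32 (adjusted p = 0.0498). A second Gzmb probe measured 4.84, 6.86 and 5.96 in sham, 4.18, 4.49 and 4.64 in BPH and 4.66, 5.53 and 6.27 in BPH+ghrelin, with differences of -1.45 ± 0.54 in BPH against sham (adjusted p = 0.144) and 1.05 ± 0.54 in BPH+ghrelin against BPH (adjusted p = 0.304). The 2 probes gave opposite signs in BPH+ghrelin against BPH, and the gene is uncertain there.

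Sham replicate 2 was the highest sham array for all 5 granule genes, also for Prf1 (perforin) at 6.55 beside 4.96 and 5.73. Other markers were high on it as well. The summed level of the 6 measured lymph node genes was 9.18 on this array and 8.13 and 8.53 on the other sham arrays, against 8.32 to 8.43 in BPH and 7.72 to 7.88 in BPH+ghrelin. The 4 adipocyte markers summed to 13.29 on it and to 9.60 and 11.91 on the others. The part of lymphoid or fatty tissue in the values of the granule genes was not tested. Without this array 4 genes were called in BPH against sham and 4 in BPH+ghrelin against sham.

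By the brightest probe of each, the NK receptors had differences between -0.31 and 0.39 over the 3 comparisons. Klrk1 (NKG2D) measured 7.47 to 7.88, with a difference of -0.31 ± 0.10 in BPH+ghrelin against sham (adjusted p = 0.112). Its second probe disagreed, with 0.99 ± 0.61 in BPH against sham (adjusted p = 0.325), where the brightest had -0.17, and with -1.21 ± 0.61 in BPH+ghrelin against BPH (adjusted p = 0.295), where the brightest had -0.14. Klrd1 (CD94) had 0.39 and 0.28 against sham in BPH and BPH+ghrelin, Klrb1a -0.20 in BPH, and 0 of the NK receptors passed limma in any comparison (1, Klrk1, at an unadjusted p under 0.05). Pax5, the only B cell gene tested, had differences of -0.25, 0.16 and -0.09 in the 3 comparisons and passed none.

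Cd52, a short surface glycoprotein of lymphocytes that is also known as a major product of the epididymal epithelium, showed the widest range of all listed genes. It measured 14.62, 12.20 and 13.99 in sham, 9.74, 8.90 and 4.74 in BPH, and 5.70, 5.06 and 4.05 in BPH+ghrelin, above background on all 9 arrays. Every array of both BPH groups was below every sham array, and BPH replicate 3 lay among the BPH+ghrelin arrays. Cd52 was 56.1-fold lower in BPH (-5.81 ± 1.24, adjusted p = 0.042) and 407-fold lower in BPH+ghrelin than in sham (-8.67 ± 1.24, adjusted p = 0.00893), and the difference between the BPH groups was -2.86 ± 1.24 (adjusted p = 0.236). The call in BPH had an adjusted p of 0.139 without sham replicate 3, and of 0.128 and 0.0556 without BPH replicates 2 and 3, and its difference ran from -6.78 without BPH replicate 1 to -4.28 without BPH replicate 3, with -6.51 without sham replicate 2. The call in BPH+ghrelin was kept in 6 of 6 fits that left out an array, with differences from -9.37 without sham replicate 2 to -8.16 without sham replicate 1. Without BPH replicate 3, Cd52 was also called between the BPH groups (-4.39, adjusted p = 0.0446).

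Cd52 had a wider range than the T cell gene Cd3d, which was also called lower in both comparisons with sham. Cd3d spanned 7.28 to 8.18 on the same arrays, and the leukocyte gene Ptprc (CD45) spanned 7.62 to 8.71. Ordered by Cd52, the 9 arrays stood in the same order as by the summed level of 8 seminal vesicle and coagulating gland markers, which was 17.27, 16.46 and 17.16 in sham, 14.79, 13.92 and 9.58 in BPH, and 11.94, 11.24 and 9.17 in BPH+ghrelin. Semg1, the seminal clotting protein semenogelin, measured 16.69, 16.07 and 16.69 in sham, 14.53, 13.63 and 7.35 in BPH, and 10.14, 9.45 and 5.24 in BPH+ghrelin. BPH replicate 3 and BPH+ghrelin replicate 3 were the lowest arrays for both genes. The order was not particular to these markers. Msmb, a secretory protein of the prostate singled out after its values were seen, placed 9 of 9 arrays as Cd52 did, whereas the single markers Semg1 and Svs4 placed 7 of 9 and Svs3a 6 of 9.

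Of these 8 markers, 4 were called lower in BPH and 4 in BPH+ghrelin against sham, among them Svs3b, which passed the filter in both comparisons only through its sham arrays (1 of 3 BPH and 0 of 3 BPH+ghrelin arrays above background), so that both its calls are descriptions. The others included Svs3a (-5.57 and -6.10) and Svs4 (-4.26 and -4.80), secretory proteins of the seminal vesicle. Svs3a was above background on 2 of 3 arrays in each BPH group. It reached the filter only with the sham arrays, where it was high, so both its calls are descriptions as well. Between the BPH groups limma called 0 of 7 (1 lower and 1 higher at an unadjusted p under 0.05). The other markers did not all lie on that side: 3 of the 8 were above 0 in BPH and 2 in BPH+ghrelin against sham, and Semg1 was not called in BPH (adjusted p = 0.172). Of 8 and 7 tested epididymis and vas deferens markers, Teddm1a had an adjusted p under 0.05 in each comparison with sham, but it was above background on 2 of 3 BPH and 0 of 3 BPH+ghrelin arrays and reached the filter only with the sham arrays, where it was high, so both tests are descriptions. It measured 8.22, 8.68 and 8.54 in sham, 5.08, 4.07 and 0.62 in BPH and 0.51 to 0.58 in BPH+ghrelin, so that BPH replicate 3 was again low. The list as a whole did not share this direction, with 4 of 8 markers above 0 in BPH (median -0.20) and 4 of 7 in BPH+ghrelin against sham (median 0.34). The summed epididymis markers ran from 9.94 to 10.27 in sham, 8.97 to 9.08 in BPH and 9.40 to 9.59 in BPH+ghrelin. The part of these tissues in the level of Cd52 was not tested. Without Cd52, 4 of 28 genes (Ctla4 among them) were called in BPH and 3 of 25 in BPH+ghrelin against sham. Of all genes 4.33% and 6.3% were called there. The medians without Cd52 were -0.19 and -0.31.

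**Figure D4:**
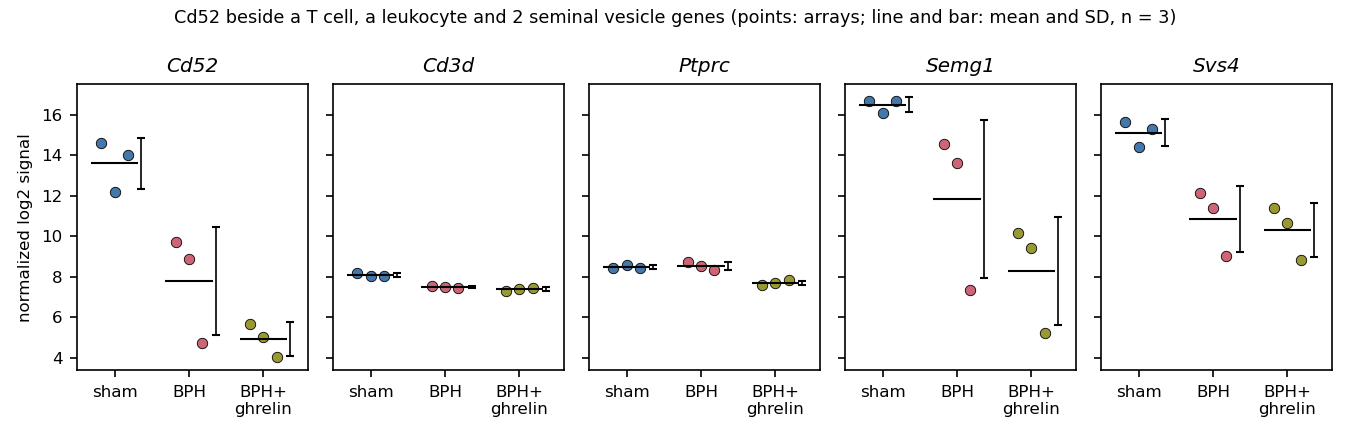
Normalized log2 signal of Cd52, the T cell gene Cd3d, the leukocyte gene Ptprc and the seminal vesicle genes Semg1 and Svs4 on a shared y axis, 1 point per array with the mean and SD of 3 arrays. Cd52, Semg1 and Svs4 are highest in sham and lowest on the third array of each BPH group, whereas Cd3d and Ptprc stay between 7.28 and 8.71.

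The promoter window of Cd52, at chr5:151605047-151605346 (minus strand) in GRCr8, is shown for the gene with the widest range and held none of the 3 motifs.
Cd52: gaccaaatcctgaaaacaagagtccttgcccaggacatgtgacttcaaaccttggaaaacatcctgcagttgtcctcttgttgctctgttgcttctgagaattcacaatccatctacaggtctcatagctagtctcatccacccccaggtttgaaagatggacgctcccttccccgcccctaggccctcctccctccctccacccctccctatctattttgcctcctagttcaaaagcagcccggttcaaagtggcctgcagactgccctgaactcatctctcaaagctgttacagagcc
That says only that these letters are not in this window.

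Of the 5 mast cell genes, 4 had positive differences in BPH+ghrelin against BPH (median 0.60), where 48.3% of all genes lay below 0. In BPH+ghrelin against BPH and then in BPH+ghrelin against sham the sides differed in number. All 5 were above 0 in BPH+ghrelin against sham (median 0.14), where 45.6% of all genes lay below 0. In the latter, Kit at 0.018 lay below 0 in 3 of 6 fits that left out an array (to -1.02 without sham replicate 2), at -0.39 under 75th percentile scaling, at -0.11 under normexp and at -0.57 in the deposited matrix, and Fcer1a lay below 0 in 2 of 6 (to -0.11 without BPH+ghrelin replicate 3). In BPH against sham 4 of 5 were below 0, beside 46.3% of all genes, with a median of -0.36. By limma 0 of the 5 were called in any comparison, beside 4.33%, 1.48% and 6.3% of all genes. Only 1, Tpsab1 in BPH+ghrelin against BPH, had an unadjusted p under 0.05, beside 21.1% of all genes.

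Tpsab1, the tryptase of mast cell granules, measured 7.63, 6.05 and 7.22 in sham, 5.93, 6.69 and 7.21 in BPH, and 7.89, 7.91 and 7.96 in BPH+ghrelin. The BPH+ghrelin arrays lay close together above all others, which were spread. The difference from BPH was 1.31 ± 0.43 (2.49-fold, adjusted p = 0.148) and 1.28 within the shared scan, and that from sham was 0.96 ± 0.43 (adjusted p = 0.222).

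Fcer1a, the alpha chain of the high-affinity immunoglobulin E receptor, measured 5.36, 6.45 and 5.61 in sham, 5.40, 5.32 and 5.00 in BPH, and 5.48, 5.92 and 6.45 in BPH+ghrelin. All BPH+ghrelin arrays were above the BPH arrays, the lowest by little. The difference was 0.71 ± 0.33 (adjusted p = 0.258), and within the shared scan, which held only the lowest BPH+ghrelin array, it was 0.24. Ms4a2, the beta chain of that receptor, had 0.60 ± 0.31 (adjusted p = 0.302), with overlapping arrays.

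Cpa3, carboxypeptidase A3 of the granules, measured 7.30, 6.97 and 7.08 in sham, 7.09, 7.09 and 6.94 in BPH, and 6.78, 7.45 and 8.20 in BPH+ghrelin. The BPH+ghrelin arrays spread around the others, with replicate 1 below and replicate 3 above them all. The difference from BPH was 0.44 ± 0.31 (adjusted p = 0.444) and turned to -0.26 within the shared scan. The summed adipocyte markers of the BPH+ghrelin arrays were also lowest on replicate 1 (8.91) and highest on replicate 3 (12.99), and their part in the spread of Cpa3 was not tested. Kit, the receptor of stem cell factor, measured 4.19, 0.54 and 3.11 in sham, 3.93, 3.82 and 3.74 in BPH and 2.84, 2.33 and 2.73 in BPH+ghrelin. The BPH+ghrelin arrays were below the BPH arrays, the opposite side from the other mast cell genes, with a difference of -1.20 ± 0.77 (adjusted p = 0.4), and sham spanned both. Kit was well above background on 3 BPH arrays, 2 sham arrays and 1 BPH+ghrelin array.

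Promoters of Cpa3, at chr2:104673188-104673487 (minus strand), and Fcer1a, at chr13:88224630-88224929 (minus strand), are shown because they were 2 of the 3 windows that held AGATAA, with Cd28 as the third, against 11.6% of all rat promoters. GATA factors are known regulators of mast cell genes. Capitals mark AGATAA or its reverse complement TTATCT, at base -55 in Cpa3 and -93 in Fcer1a.
Cpa3: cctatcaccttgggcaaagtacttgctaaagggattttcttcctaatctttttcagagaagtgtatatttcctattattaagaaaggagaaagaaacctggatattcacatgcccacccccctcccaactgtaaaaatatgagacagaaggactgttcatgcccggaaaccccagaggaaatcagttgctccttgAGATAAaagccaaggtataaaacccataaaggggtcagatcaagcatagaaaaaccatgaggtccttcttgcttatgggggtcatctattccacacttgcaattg
Fcer1a: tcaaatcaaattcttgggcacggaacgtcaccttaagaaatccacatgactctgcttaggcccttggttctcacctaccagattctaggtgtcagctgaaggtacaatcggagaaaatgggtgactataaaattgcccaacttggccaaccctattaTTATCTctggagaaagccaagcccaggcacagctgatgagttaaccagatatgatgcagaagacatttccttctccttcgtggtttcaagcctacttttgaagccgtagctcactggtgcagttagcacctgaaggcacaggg
The windows of Kit and Tpsab1 held none of the 3 motifs, and no window was given for Ms4a2.

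Genes of the same cells outside the 42 were counted from lists chosen by name. Of 13 other mast cell genes tested, 3 were called lower in BPH than in sham, all of them mast cell proteases, and 10 lay below 0 and 3 above, with a median of -0.28. Hpgds, a prostaglandin D synthase, and Tph1, the serotonin-forming tryptophan hydroxylase, had positive differences there, of 0.90 (adjusted p = 0.0696) and 0.45 (adjusted p = 0.124). Above 0 in BPH+ghrelin against BPH lay 9 of the 13, while Fcer1g, a chain of the immunoglobulin E receptor, and Srgn, the granule proteoglycan, had -0.51 (adjusted p = 0.141) and -0.47 (adjusted p = 0.104). Mcpt8 measured 8.36, 9.05 and 8.59 in sham, 7.07, 6.80 and 6.95 in BPH, and 7.92, 7.86 and 7.92 in BPH+ghrelin. The groups did not overlap in any pair, with BPH lowest. The differences were -1.73 ± 0.18 in BPH against sham (adjusted p = 0.00366), 0.96 ± 0.18 in BPH+ghrelin against BPH (adjusted p = 0.0468) and -0.76 ± 0.18 in BPH+ghrelin against sham (adjusted p = 0.0454). Mcpt9 and Mcpt10 had -1.48 (adjusted p = 0.00701) and -1.33 (adjusted p = 0.0101) in BPH against sham, and 0.79 (adjusted p = 0.0785) and 0.67 (adjusted p = 0.103) in BPH+ghrelin against BPH. These proteases come from closely related gene copies whose probes may share target RNA, so they do not count as 3 separate genes, and Mcpt8 is known from basophils as well as mast cells. In BPH+ghrelin against sham 6 of the 13 lay above 0 and 7 below, with a median of -0.15. The listed mast cell genes, all above 0 there, thus did not stand for the wider list. At an unadjusted p under 0.05 (limma), 6 were lower, the 3 proteases among them, and 3 were higher. Mcpt8 was the 1 gene called lower. Tph1 was the 1 called higher in BPH+ghrelin than in sham (0.78 ± 0.15, adjusted p = 0.026).

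**Figure D5:**
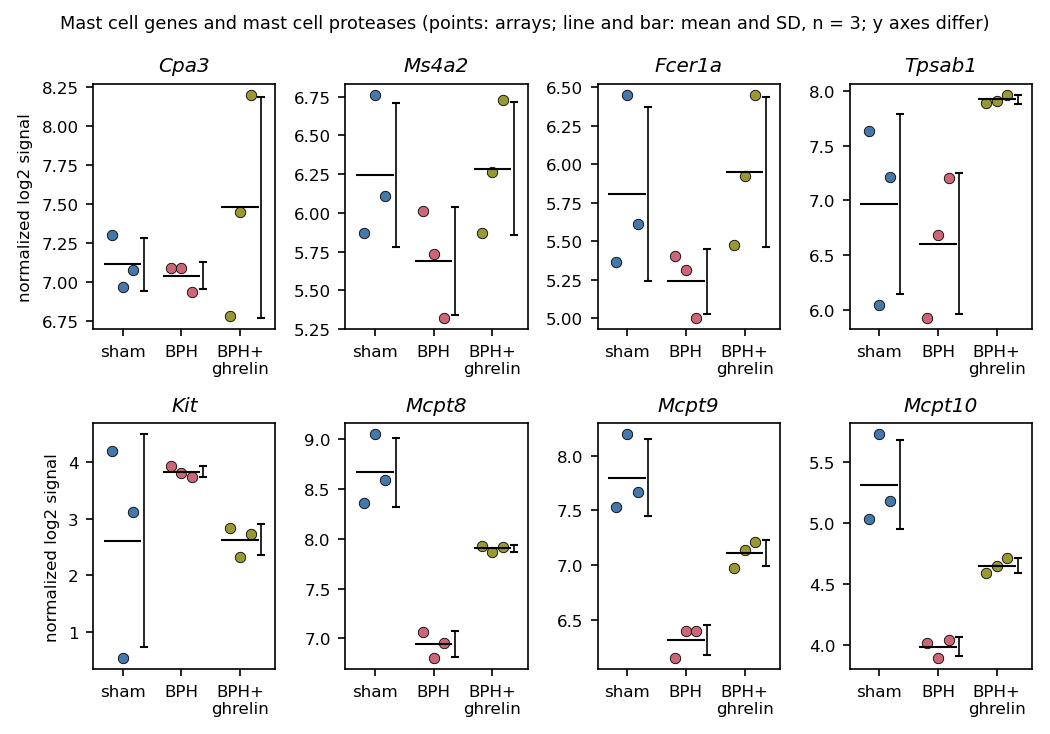
Normalized log2 signal of the 5 listed mast cell genes and of the proteases Mcpt8, Mcpt9 and Mcpt10, 1 point per array with the mean and SD of 3 arrays; the y axes differ between genes. BPH is the lowest group for Mcpt8, Mcpt9 and Mcpt10 without overlap, while Kit is lowest on sham replicate 2 at 0.54.

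Of the other T cell genes limma called 0 of 12, 0 of 12 and 0 of 10 in the 3 comparisons (1, 3 and 3 at an unadjusted p under 0.05, all lower). One of these, Cd69 in BPH+ghrelin against BPH, was above background on 3 BPH and 0 BPH+ghrelin arrays. It reached the filter only through BPH, where it was high, so its test is a description. Of the other NK and cytotoxic genes limma called 0 of 5 in each comparison (0, 2 and 2 at an unadjusted p under 0.05). Of 9 other B and plasma cell genes, Pou2af1, a coactivator of B cells, was called lower in BPH+ghrelin against sham. It measured 6.42, 7.47 and 6.50 in sham, 6.02, 6.35 and 6.69 in BPH, and 5.23, 5.36 and 5.13 in BPH+ghrelin (-1.56 ± 0.29, adjusted p = 0.0229), so the BPH+ghrelin arrays stood below all others. In the other comparisons limma called 0 of these 9 genes, with 6 and 2 at an unadjusted p under 0.05. Among 6 lymph node genes, of which 0 were called between the BPH groups by limma (3 at an unadjusted p under 0.05), the chemokine Ccl19, which draws T cells to lymphoid tissue, was lower in BPH (-1.84 ± 0.31, adjusted p = 0.0205) and in BPH+ghrelin than in sham (-1.89 ± 0.30, adjusted p = 0.0144). The B cell chemokine Cxcl13 was lower in BPH+ghrelin than in sham (-1.72 ± 0.36, adjusted p = 0.0327).

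Of 13 genes common to leukocytes, 1 was called lower in BPH+ghrelin than in BPH and 2 were called lower than in sham, and limma called 0 in BPH against sham (1 at an unadjusted p under 0.05). Ptprc measured 8.43, 8.60 and 8.43 in sham, 8.71, 8.54 and 8.33 in BPH, and 7.62, 7.68 and 7.83 in BPH+ghrelin. The BPH+ghrelin arrays were below all others, and sham and BPH overlapped. The differences were -0.82 ± 0.14 from BPH (adjusted p = 0.0368) and -0.78 ± 0.14 from sham (adjusted p = 0.0187). Coro1a, an actin regulator of leukocytes, was lower in BPH+ghrelin than in sham (-0.88 ± 0.15, adjusted p = 0.0174). In BPH+ghrelin against sham 12 of the 13 lay below 0 and 1 above, with a median of -0.59. At an unadjusted p under 0.05, 10 passed there, beside 23.7% of all genes. In BPH+ghrelin against BPH 11 lay below 0 and 2 above (median -0.39), and 7 passed, beside 21.1% of all genes. In BPH against sham 7 lay below 0 and 6 above. The summed pan-leukocyte level was 13.22 to 13.69 in sham, 13.49 to 13.56 in BPH and 13.12 to 13.27 in BPH+ghrelin. How far the differences of the T cell and granule genes go with this level was not tested.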

How the data were processed

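Prostate RNA of 9 rats (3 sham, 3 BPH, 3 BPH+ghrelin by the labels) was analysed. Listed genes, marker lists and probes singled out were chosen with earlier results of these data known. The authors deposited scanner intensities per spot, background-subtracted by Agilent Feature Extraction 11.0.1.1 per the file headers and not normalized between arrays, and a matrix of quantile normalized log2 values with a floor at 2.322, used here only as an alternative. Outlier spots were removed, spots of a probe averaged, log2 values quantile normalized, and the brightest passing probe taken for each gene. A probe was tested if 3 or more of the 6 arrays compared held it well above background. Of 30367 probes 11 were dropped, RefSeq names (assembly GRCr8) matched 17998 of the 30356 used, and 0 spots were saturated. The array annotation uses another assembly (rn4), so coordinates are given only for RefSeq promoters. Differences were fitted with limma 3.58.1 (lmFit, eBayes) in R 4.3.3 on all 9 arrays, adjusted by Benjamini-Hochberg over all genes, and tested on simulated data. Genes with values were those called, up to 5 per comparison and direction with at least 1.5-fold and no overlap, and Cd3e, Cd4, Cd8a, Foxp3, Cd79a, Ms4a1, Nkg7, Gzmb, Cpa3, Kit and Cd52; of other lists, up to 3 called genes. Where a group had no array above background, the fold is set against the lowest signal well above background and is no strict limit. Alternatives were 75th percentile scaling, normexp with offset 50, filters, 6 arrays only, mean of probes, replicate and scan blocks, the matrix, eBayes with trend, each array left out and, chosen after seeing the data, single probes, within-scan fits and leaving out Cd52.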

Additional observations from a re-analysis of the deposited data

How the results depend on the processing

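The number of listed genes called in BPH against sham, 5, was 3 under normexp and without the filter on dim probes, and 0 with only the 6 arrays compared and with the scan as a block. Leaving out 1 array at a time gave 0 to 6. In BPH+ghrelin against BPH the count of 0 was 8 at an unadjusted p under 0.05, 5 with only the 6 arrays compared (10.6% of all genes), and 0 to 1 with an array left out. In BPH+ghrelin against sham the count of 4 was 8 at an unadjusted p, 0 with the scan as a block and within 1 scan, and 1 to 6 with an array left out. With the replicate number as a block the 3 counts were 1, 0 and 2; same-numbered arrays correlated between -0.14 and 0.26 in their deviations over 9 pairs and others between -0.29 and 0.31, so the numbers did not pair the arrays. Medians in BPH+ghrelin against BPH were -0.064 under normexp, -0.35 with the scan as a block and within 1 scan, and -0.30 to -0.065 with an array left out, and in BPH+ghrelin against sham -0.13 under normexp. Over all alternatives the adjusted p of the calls ran from 0.0114 to 0.843 in BPH against sham and from 0.00438 to 0.559 in BPH+ghrelin against sham. The 75th percentile scaling moved the median of all genes in BPH against sham from 0.04 to -0.09. All medians of the listed genes stayed below 0.

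Signs turned in 21 cases, all of differences that passed no test with all 9 arrays. With 1 array left out at a time, Foxp3 ran from -0.20 to 0.10, Cpa3 from -0.15 to 0.019, Gzmb from -1.32 to 0.31 and Gzmk from -0.47 to 0.056 in BPH against sham, and Kit ran from -1.02 to 0.81, Fcer1a from -0.11 to 0.46 and Gzmb from -1.37 to 0.26 in BPH+ghrelin against sham. Gzmb and Gzmk turned only without sham replicate 2. In BPH against sham, Foxp3 was 0.057 under normexp, and with the scan as a block Cpa3 was 0.95 and Fcer1a 0.048. In BPH+ghrelin against BPH, Gzmb was 0.50 as the mean of its probes and 1.05 by its other probe, and Cpa3 was -0.26 with the scan as a block and within 1 scan. In BPH+ghrelin against sham, Kit was -0.39 under 75th percentile scaling, -0.11 under normexp and -0.57 in the matrix. The cause was not tested. Dim genes are limited by the background: Cd3e, Cd4, Cd8a, Kit and Ctla4 were above it on some arrays only.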

Other observations

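Of 13 macrophage and granulocyte genes tested, Adgre1, a macrophage surface receptor, was higher in BPH than in sham (1.18 ± 0.26, adjusted p = 0.0434), and Mrc1, the mannose receptor, and C1qa, a complement chain, fell from BPH to BPH+ghrelin (-1.30 ± 0.21, adjusted p = 0.0336, and -0.80 ± 0.15, adjusted p = 0.0489). In BPH against sham 8 of the 13 lay above 0 and 5 below, among them Csf1r (-0.58, adjusted p = 0.0795), S100a8 (-2.32, adjusted p = 0.119) and S100a9 (-2.74, adjusted p = 0.0945). The 3 Adgre1 arrays of BPH lay at 6.63 to 6.79 and those of sham at 4.97 to 6.12.

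Among structural lists, 2 of 9 epithelial markers were called higher in BPH and 2 in BPH+ghrelin against sham, and limma called 0 between the BPH groups (2 at an unadjusted p under 0.05). Krt8 lay at 10.38 to 10.74 in sham and 11.49 to 11.56 in BPH. Of 8 prostate secretory markers 2 were called lower in BPH and 4 in BPH+ghrelin against sham. Of 11 stromal and smooth muscle markers 2 were called lower in BPH+ghrelin against each of the other groups, and limma called 0 in BPH against sham (0 at an unadjusted p under 0.05). Of the endothelial markers 1, Pecam1, was called lower in BPH+ghrelin against sham. The 4 adipocyte markers gave 0 calls by limma and 0 at an unadjusted p under 0.05 in each comparison.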
